A study of Mus musculus with 4 samples.

Results

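The genes described here encode the enzymes that build cholesterol from acetyl-CoA, the SREBP transcription factors with the proteins that activate or hold them back, and 3 sterol transport proteins. They were taken by name from a list of 29 genes, as every probe set whose platform annotation gives 1 gene symbol and that symbol is on the list. This found 63 probe sets for 28 genes, out of 45037 probe sets and 18193 genes with 1 symbol on the array. The remaining gene, Acat2, was not analysed here. Expression was measured with mouse arrays from Affymetrix, in brown preadipocytes (cells that can become brown fat cells) that were immortalized and came from a mixed C57/BL6-129 strain. All cells carried floxed alleles of G9a (G9af/f), the histone H3 lysine 9 methyltransferase encoded by Ehmt2. The control group had received vector (Vec, labelled wild type) and the other group Cre (labelled G9a knock out), with 2 arrays in each, numbered 1 and 2. The sources used here give no age or sex of the source animals, nor how the cells were immortalized or Cre was delivered.

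Cholesterol is made in the endoplasmic reticulum. Acetyl-CoA units are joined and reduced to mevalonate, mevalonate is turned into isoprenoid units, these are condensed to squalene, and squalene is closed to lanosterol and trimmed to cholesterol. When sterols in the membrane run low, the escort protein SCAP carries the SREBP precursors to the Golgi, where a pair of proteases release the transcription factor that switches on the enzymes of the pathway. When sterols are plentiful, INSIG proteins hold SCAP and SREBP back. Preadipocytes use the pathway for membranes and protein prenylation, and SREBP-1 also drives fatty acid synthesis during fat cell formation.

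Signals are quantile-normalized array units, and differences are knockout minus control on the scale log2(signal + 16), which understates changes of dim genes. Each gene is given by its brightest probe set, and all 28 passed the filter on level (at least the 50th percentile of mean log2 signal, about 60.6 units), as did 11079 genes in all. Deposited array medians lay between 50.6 and 78 units. Ehmt2 read 2722 and 2646 in control cells and 949 and 941 in knockout cells, with non-overlapping groups. Of the preadipocyte markers 6 of 7 passed the filter (Pdgfra, Pdgfrb, Cd34, Thy1, Dlk1 and Ebf2, with Zfp423 below it), while 0 of 4 mature adipocyte, 0 of 5 endothelial, 3 of 7 macrophage and leukocyte and 1 of 5 skeletal muscle markers did. Of the macrophage and leukocyte markers, Csf1r, Cd68 and Cd14 passed, while Ptprc, Adgre1, Lyz2 and Itgam were below the filter. Cd14 was the brightest of them, at 513 and 433 in control cells and 542 and 374 in knockout cells. The summed preadipocyte signal was 11236 and 11457 in control cells and 8403 and 11752 in knockout cells. Within that list Dlk1, a membrane protein of preadipocytes, read 5695 and 5067 in control cells and 1718 and 4679 in knockout cells, and Pdgfra and Cd34 were also lower without overlap. Pdgfrb was higher in both pairs (0.34 and 0.47), and Thy1 (0.02) and Ebf2 (0.05) had small positive differences, so that 3 of the 6 were negative and 3 positive. None of the markers passed the test. The summed endothelial signal was 130 and 99 in control cells and 266 and 184 in knockout cells. Within it, Kdr read 69.3 and 9.6 in control cells and 140.8 and 72.1 in knockout cells. Its knockout mean (log2 6.88) was above the filter (log2 6.26), but its mean over all arrays was not, so Kdr was not tested. The mature adipocyte sum lay between 31 and 55. The part of these markers in the results below was not tested. Whether arrays of 1 group stem from different cultures is not in the labels. In both groups, however, number 1 and number 2 differed widely in the sex-linked transcripts Xist and Eif2s3y (values under processing). The 2 arrays of a group thus came from cells that differ in these transcripts. The p-values rest only on the spread between these arrays, which limma borrows in part from other probe sets of similar level. Each array holds RNA of a whole culture, so fewer cells that express a gene and less RNA per cell cannot be told apart.

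In G9a knockout cells, most genes of cholesterol synthesis and of SREBP control read slightly lower than in control cells. Of the 28 genes, 19 had a negative and 9 a positive log2 difference, while 48.9% of all genes were negative. Their median difference was -0.20, with an interquartile range from -0.30 to 0.01, beside a median of 0.007 over all genes (-0.17 to 0.196). The differences ran from -0.56 for Srebf2 to 0.39 for Npc1. Within the pairs of arrays with the same number the medians were -0.18 (pair 1) and -0.10 (pair 2), with 22 and 17 genes negative. Over all 11079 genes the medians were 0.028 and -0.007, with 5134 and 5656 genes negative. In both pairs alike, 15 of 28 genes were lower and 4 were higher. Over all genes, 30.2% were lower in both pairs and 32.8% were higher. Groups that did not overlap were found for 9 genes on the lower side, where the background was 13.6%, and for 3 on the higher side, where it was 17.5%.

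No single gene of the pathway passed the test. In limma without the pairing, 0 of 28 genes passed an adjusted p of 0.05 (0% of all genes did), with adjusted p-values all at 0.999. The targeted gene Ehmt2, 64.4% lower, did not pass there either (limma adjusted p = 0.227). A pathway gene that did not pass is therefore not shown to be unchanged. In either direction 0 had an unadjusted p under 0.05, where 562 of all 11079 genes did (1.27% of all genes were lower at that level). When the replicate number entered as a block, 0 genes of the pathway fell or rose after adjustment, beside 0.984% and 3.25% of all genes. The smallest adjusted p among them was 0.133, for Sqle, while Ehmt2 passed in that model (limma adjusted p = 0.000281). At an unadjusted p under 0.05 in that paired model, 6 genes lay lower (Hmgcs1, Sqle, Lss, Msmo1, Srebf2 and Insig1) and 0 higher, where 7.53% and 10.8% of all genes did. The median of the 28 genes depended on single arrays and on the choice of probe sets. It was -0.09 without control 1, -0.12 without knockout 2 and -0.12 when all probe sets of a gene were averaged, those below the filter included. Median centring in place of quantile normalization shifted all genes by about -0.10, to a median of -0.09, and the pathway genes to -0.32.

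**Figure D1:**
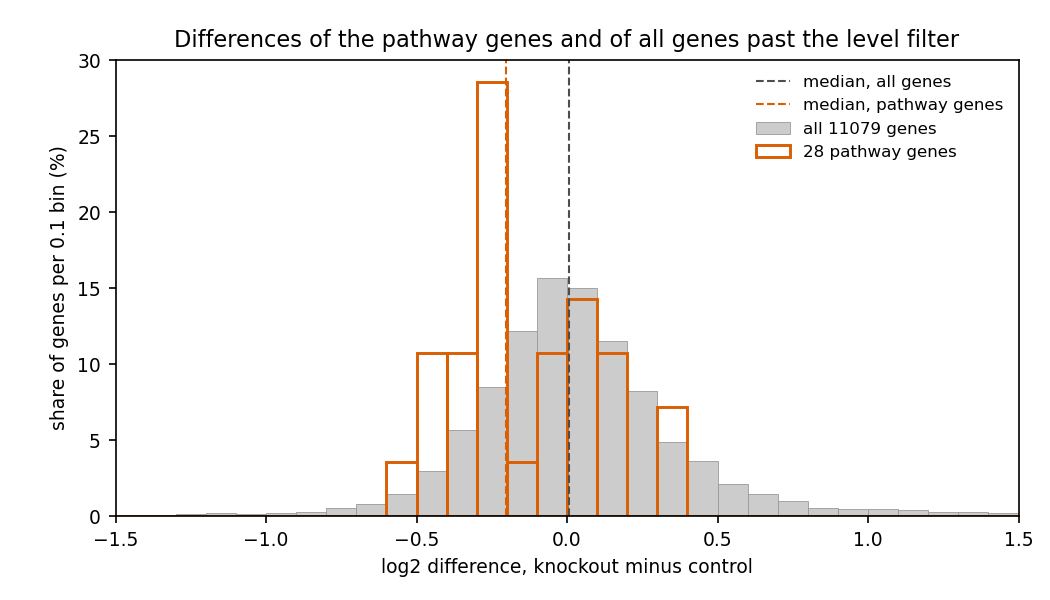
Share of genes (vertical axis, percent per bin of 0.1) by log2 difference, knockout minus control (horizontal axis), for all 11079 genes past the level filter (grey) and the 28 pathway genes (orange outline). Dashed lines mark the medians of 0.007 and -0.20, and the bins from -0.6 to -0.2 hold a larger share of the pathway genes than of all genes.

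Sequences upstream of the genes show which letters known to bind SREBP and its partner factors lie there. RefSeq (GRCm38.p6) gave windows for 23 of the 28 genes, 31 windows in all, and the 250 bases before each start were searched on both strands. Fdps, Fdft1, Sqle, Stard4 and Npc1 had no entry. The sterol regulatory element was searched as TCACNCCAC, the NF-Y box as CCAAT, the GC box bound by Sp1 as GGGCGG and the E-box as CACGTG, and none of these motifs holds another. CCAAT was found in 21 of the 31 windows (67.7%), against 33.9% of all 32851 windows, and GGGCGG in 23 (74.2%) against 32.7%. CACGTG was found in 5 windows (16.1% against 6.02%), and TCACNCCAC in 1 (3.23% against 1.05%), that of Hmgcs1, where it begins 137 bases before the start. By gene, 20 of 23 had CCAAT and 20 had GGGCGG in at least 1 window, against 37.5% and 35.4% of all genes. The shares over all windows and genes include genes of any level in these cells, while all 28 pathway genes passed the level filter. Shares among expressed genes alone were not computed, so the higher shares are not shown to be particular to this pathway. A match of letters is a description and not a binding site, and windows without a match say nothing about a factor. The windows below are those of an early and a late enzyme, of 2 regulators that read lower in both pairs, and of Mbtps2, which read higher in both. They run 5′ to 3′ on the gene's strand and end just before the start, and capitals mark TCACNCCAC and CCAAT on either strand (the latter reads ATTGG on the other strand).
Hmgcs1 (chr13:119690101-119690350, plus strand): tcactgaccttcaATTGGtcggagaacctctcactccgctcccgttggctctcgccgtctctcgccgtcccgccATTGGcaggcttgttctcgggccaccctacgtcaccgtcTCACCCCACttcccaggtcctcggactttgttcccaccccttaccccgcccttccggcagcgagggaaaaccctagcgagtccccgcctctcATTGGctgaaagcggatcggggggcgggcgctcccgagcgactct
Cyp51 (chr5:4104698-4104947, minus strand): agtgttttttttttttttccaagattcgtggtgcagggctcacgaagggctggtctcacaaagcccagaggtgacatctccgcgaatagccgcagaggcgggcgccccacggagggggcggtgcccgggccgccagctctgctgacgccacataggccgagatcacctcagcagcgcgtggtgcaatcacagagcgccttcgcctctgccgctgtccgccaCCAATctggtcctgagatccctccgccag
Insig1 (chr5:28071162-28071411, plus strand): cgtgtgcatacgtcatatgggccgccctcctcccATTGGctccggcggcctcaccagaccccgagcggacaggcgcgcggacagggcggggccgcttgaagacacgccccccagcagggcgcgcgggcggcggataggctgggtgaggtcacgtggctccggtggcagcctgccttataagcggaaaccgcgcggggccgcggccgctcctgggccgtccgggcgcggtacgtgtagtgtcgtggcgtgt
Srebf2 (chr15:82147019-82147268, plus strand): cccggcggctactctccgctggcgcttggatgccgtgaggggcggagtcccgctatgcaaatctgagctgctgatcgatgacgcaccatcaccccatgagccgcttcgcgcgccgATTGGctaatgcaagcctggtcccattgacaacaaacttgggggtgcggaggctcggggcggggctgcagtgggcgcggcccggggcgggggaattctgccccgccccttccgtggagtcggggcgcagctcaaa
Mbtps2 (chrX:157598716-157598965, minus strand): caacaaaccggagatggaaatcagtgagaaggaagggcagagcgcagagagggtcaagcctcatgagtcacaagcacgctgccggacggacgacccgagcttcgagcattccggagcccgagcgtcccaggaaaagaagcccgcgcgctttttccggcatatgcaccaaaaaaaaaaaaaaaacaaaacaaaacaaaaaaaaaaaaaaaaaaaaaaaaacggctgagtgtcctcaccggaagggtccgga

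Of these windows, that of Hmgcs1 holds 3 NF-Y boxes, beginning 237, 176 and 45 bases before the start, besides its sterol regulatory element. The windows of Cyp51, Insig1 and Srebf2 hold 1 NF-Y box each, beginning 29, 216 and 135 bases before the start. That of Insig1 also has an E-box at 101 bases, and that of Srebf2 has 4 GC boxes. The window of Mbtps2 has none of the 4 motifs. Mvk, whose difference was near 0, has 5 NF-Y boxes, the most of any window here. The windows shown do not stand for the rest. Ebp and Npc2, which read higher in both pairs, have 2 NF-Y boxes each. Scap and Mbtps1, which read lower in both pairs, have 0. Whether the motifs go with the direction of a difference was not tested.

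Among the enzymes that make mevalonate and activate it, only Hmgcs1 was lower in both pairs. Hmgcs1, the synthase that makes HMG-CoA, read 7430 and 7541 in control cells and 6115 and 6604 in knockout cells. Both knockout arrays were below both controls, and the log2 difference was -0.24 ± 0.13 (SE, n = 2 against 2; 95% interval -0.54 to 0.07; limma adjusted p = 0.999), or 15.1% lower. Pair 1 gave -0.28 and pair 2 -0.19. Hmgcs1 has 5 probe sets, all past the filter, of which 4 were negative. The fifth, 1433444_at, differed by 0.016 and lay at 4833 and 3865 in control cells and 4920 and 3883 in knockout cells, so the probe sets of this gene did not give a single value.

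Mvk, the mevalonate kinase gene, read 1179 and 1019 in control cells and 1152 and 1052 in knockout cells. Its difference of 0.006 ± 0.23 (95% interval -0.55 to 0.56) took the other sign with the deposited scaling (-0.031) and with median centring (-0.14). Pmvk, whose product adds the second phosphate, read 857 and 1029 in control cells and 756 and 1079 in knockout cells, so that the knockout values enclosed those of the controls. Mvd, which encodes the decarboxylase that yields the isoprenoid unit, read 1098 and 926 against 1003 and 977. The pairs went opposite ways for all 3 genes, with -0.03, -0.18 and -0.13 in pair 1 and 0.05, 0.07 and 0.08 in pair 2. A second probe set of Mvd, 1448663_s_at, was lower in both pairs (-0.35 and -0.17).

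The isoprenoid enzymes had negative mean differences, with agreement between the pairs for Idi1 alone. Idi1, the isomerase that balances the isoprenoid units, read 4048 and 3549 in control cells and 3585 and 3023 in knockout cells. Its groups overlapped because number 2 was lower than number 1 in both genotypes, while the pairs gave -0.17 and -0.23 (difference -0.20 ± 0.18). Fdps, which makes farnesyl diphosphate, read 11564 and 11460 in control cells and 9230 and 11664 in knockout cells. Knockout 1 stood apart from the other 3 arrays, and the pairs gave -0.32 and 0.03. Ggps1, which makes geranylgeranyl diphosphate for protein prenylation, read 731 and 534 in control cells and 584 and 599 in knockout cells, with -0.32 in pair 1 and 0.16 in pair 2. Of its 4 probe sets 3 were negative, and 1429356_s_at was positive (0.21).

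The steps from squalene to lanosterol held the enzymes with the clearest parting of the groups. Sqle, the squalene epoxidase and an early control point of sterol synthesis, read 3217 and 3569 in control cells and 2598 and 2549 in knockout cells. Both knockout arrays lay below both controls, and the difference was -0.39 ± 0.18 (95% interval -0.82 to 0.03; adjusted p = 0.999 in limma unpaired, 0.133 paired), or 23.9% lower. The pairs gave -0.31 and -0.48, and number 1 and number 2 differed little (0.06 ± 0.12). Sqle had 1 probe set on the array. Lss, the lanosterol synthase that closes the ring, read 1292 and 1534 in control cells and 990 and 1097 in knockout cells, again without overlap. It was 25.7% lower (-0.43 ± 0.23; 95% interval -0.99 to 0.13), with -0.38 and -0.48 in the pairs. That probe set, 1420013_s_at, can match several transcripts, and the other one past the filter, 1426913_at, gave 0.04 in pair 1 and -0.32 in pair 2.

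Fdft1, the squalene synthase that commits isoprenoids to sterols, did not show this. It read 3245 and 2766 in control cells and 3620 and 2560 in knockout cells, where knockout 1 was the highest and knockout 2 the lowest of the 4 arrays. The difference of 0.02 ± 0.23 (95% interval -0.54 to 0.58) was -0.098 with median centring. A further probe set, 1438322_x_at, was lower in both pairs (-0.25 and -0.14).

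**Figure D2:**
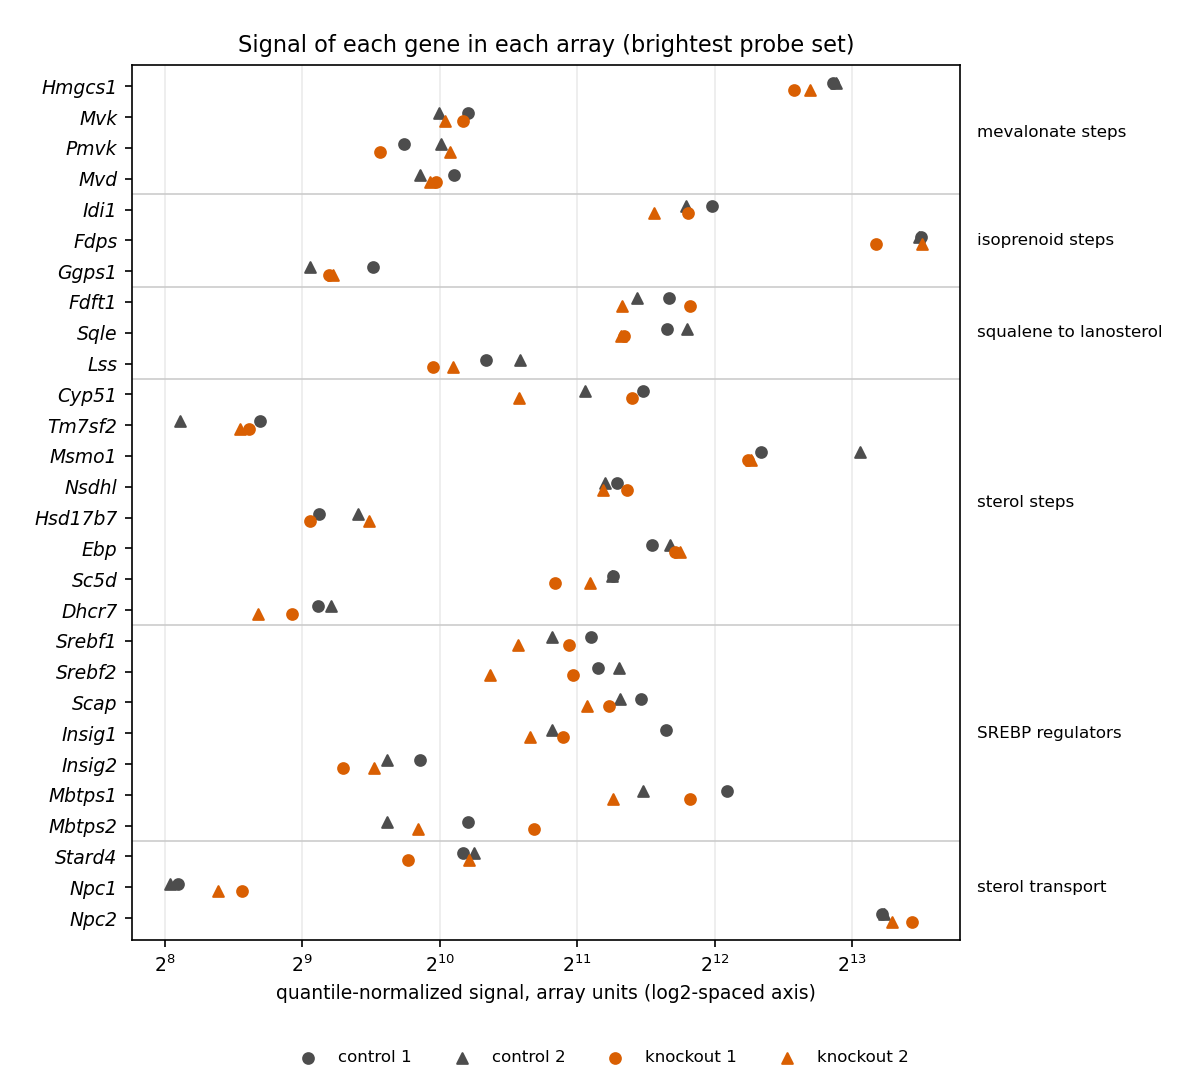
Quantile-normalized signal (horizontal axis, array units, log2-spaced) of the brightest probe set of each of the 28 genes, in pathway order, in control (grey) and knockout (orange) arrays of number 1 (circles) and number 2 (triangles). Orange symbols lie left of both grey ones for Hmgcs1, Sqle, Lss, Msmo1, Sc5d, Dhcr7, Srebf2, Scap and Insig2, and right of both for Ebp, Npc1 and Npc2.

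Of the 8 enzymes that turn lanosterol into cholesterol, 4 were lower in both pairs and 1 was higher in both. Msmo1, the methylsterol monooxygenase, read 5168 and 8517 in control cells and 4843 and 4905 in knockout cells. Control 2 stood well above the other 3 arrays, so the pairs gave -0.09 and -0.79, and the mean difference of -0.44 ± 0.24 (95% interval -1.04 to 0.15) rests mainly on pair 2. Without control 2 it was -0.084, the end of the leave-one-out range nearest 0. Cyp51, the lanosterol demethylase, read 2852 and 2126 in control cells and 2702 and 1528 in knockout cells. Its pairs also differed in size (-0.08 and -0.47), and the genotypes overlapped since number 1 was higher in both. Of its probe sets, 1422533_at was lower in both pairs (-0.08 and -0.36) and 1422534_at was slightly positive (0.05).

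Dhcr7, the last reductase of the pathway, read 554 and 593 in control cells and 487 and 411 in knockout cells, with both knockout arrays below both controls. It was 21.3% lower (-0.35 ± 0.24; 95% interval -0.93 to 0.24), with -0.18 and -0.51 in the pairs. Sc5d, the sterol desaturase before it, read 2450 and 2438 in control cells and 1829 and 2184 in knockout cells, and the groups did not overlap. The pairs gave -0.42 and -0.16. The other probe sets of Sc5d were smaller in size or of the other sign (-0.11 for 1434520_at and 0.12 for 1424709_at).

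Ebp, the sterol isomerase, ran the other way, with 2981 and 3272 in control cells and 3353 and 3436 in knockout cells. The difference was small (0.12 ± 0.17; 95% interval -0.29 to 0.53), and was positive in both pairs (0.17 and 0.07). Tm7sf2, a sterol reductase, read 414 and 276 in control cells and 392 and 374 in knockout cells, where control 2 was the lowest array and the pairs gave -0.07 and 0.42. Nsdhl, a sterol dehydrogenase, read 2500 and 2360 against 2637 and 2326, with a difference of 0.03 ± 0.19 that was -0.091 with median centring. Hsd17b7, the 3-ketosteroid reductase, read 558 and 678 against 532 and 716 on its brightest probe set, 1457248_x_at. That difference of 0.005 ± 0.27 turned negative with the deposited scaling (-0.0105) and with median centring (-0.12). Its probe sets 1448865_at (-0.15) and 1417871_at (-0.51) were lower in both pairs, the latter with -0.97 in pair 1 and -0.05 in pair 2.

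By the brightest probe set, 6 of the 7 genes that control SREBP were lower in both pairs, and Mbtps2 was higher in both. The pairs were unequal in size for Srebf2, Insig1 and Insig2, and other probe sets did not always share the sign. The median difference of the 7 genes was -0.24, against -0.11 for the 18 enzymes. Srebf2, which encodes the SREBP that drives cholesterol synthesis, read 2272 and 2529 in control cells and 2002 and 1319 in knockout cells. Both knockout arrays were below both controls, and knockout 2 was far below the other 3. The mean difference of -0.56 ± 0.26 (95% interval -1.19 to 0.08; adjusted p = 0.999 in limma unpaired, 0.138 paired), or 32.0% lower, therefore came from unequal pairs of -0.18 and -0.93. Its second probe set, 1452174_at, read 1702 and 2793 in control cells and 1860 and 1384 in knockout cells. It was 50.1% lower in pair 2 and slightly higher in pair 1 (0.13), so pair 1 did not give the 2 probe sets 1 sign. Srebf1, the gene of the SREBP more tied to fatty acid synthesis, read 2192 and 1802 in control cells and 1963 and 1520 in knockout cells. The groups overlapped across numbers, and the pairs agreed in size (-0.16 and -0.24; difference -0.20 ± 0.24).

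Scap, the escort of SREBP to the Golgi, read 2822 and 2539 in control cells and 2408 and 2148 in knockout cells. The groups did not overlap, and the pairs were nearly equal (-0.23 and -0.24). The difference was -0.23 ± 0.19 without the pairing (95% interval -0.70 to 0.23) and had an SE of 0.13 with it. Insig1, itself a target of SREBP and a brake on it, read 3201 and 1803 in control cells and 1903 and 1616 in knockout cells. Control 1 stood above the other 3 arrays, so that the pairs gave -0.75 and -0.16 and the mean was 26.9% lower (-0.45 ± 0.31). Without control 1 the difference was near 0 (-0.040). Insig2, the second brake, read 929 and 785 in control cells and 628 and 736 in knockout cells, with no overlap and pairs of -0.55 and -0.09. The other 2 probe sets of Insig2, 1417980_a_at and 1417982_at, were both positive (0.19 each), and averaging all 3 gave 0.0175.

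Mbtps1, the site-1 protease that makes the first cut in SREBP, read 4355 and 2858 in control cells and 3616 and 2450 in knockout cells. Number 2 was far below number 1 in both genotypes, while the pairs agreed (-0.27 and -0.22). Its dimmer probe sets disagreed with each other, at -0.54 for 1431385_a_at and 0.30 for 1431386_s_at, the widest spread among the 15 genes with several probe sets past the filter. Mbtps2, the site-2 protease that makes the second cut, read 1182 and 784 in control cells and 1644 and 919 in knockout cells. It was higher in both pairs (0.47 and 0.23), with a mean difference of 0.35 ± 0.36 (95% interval -0.53 to 1.23) and overlapping groups.

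**Figure D3:**
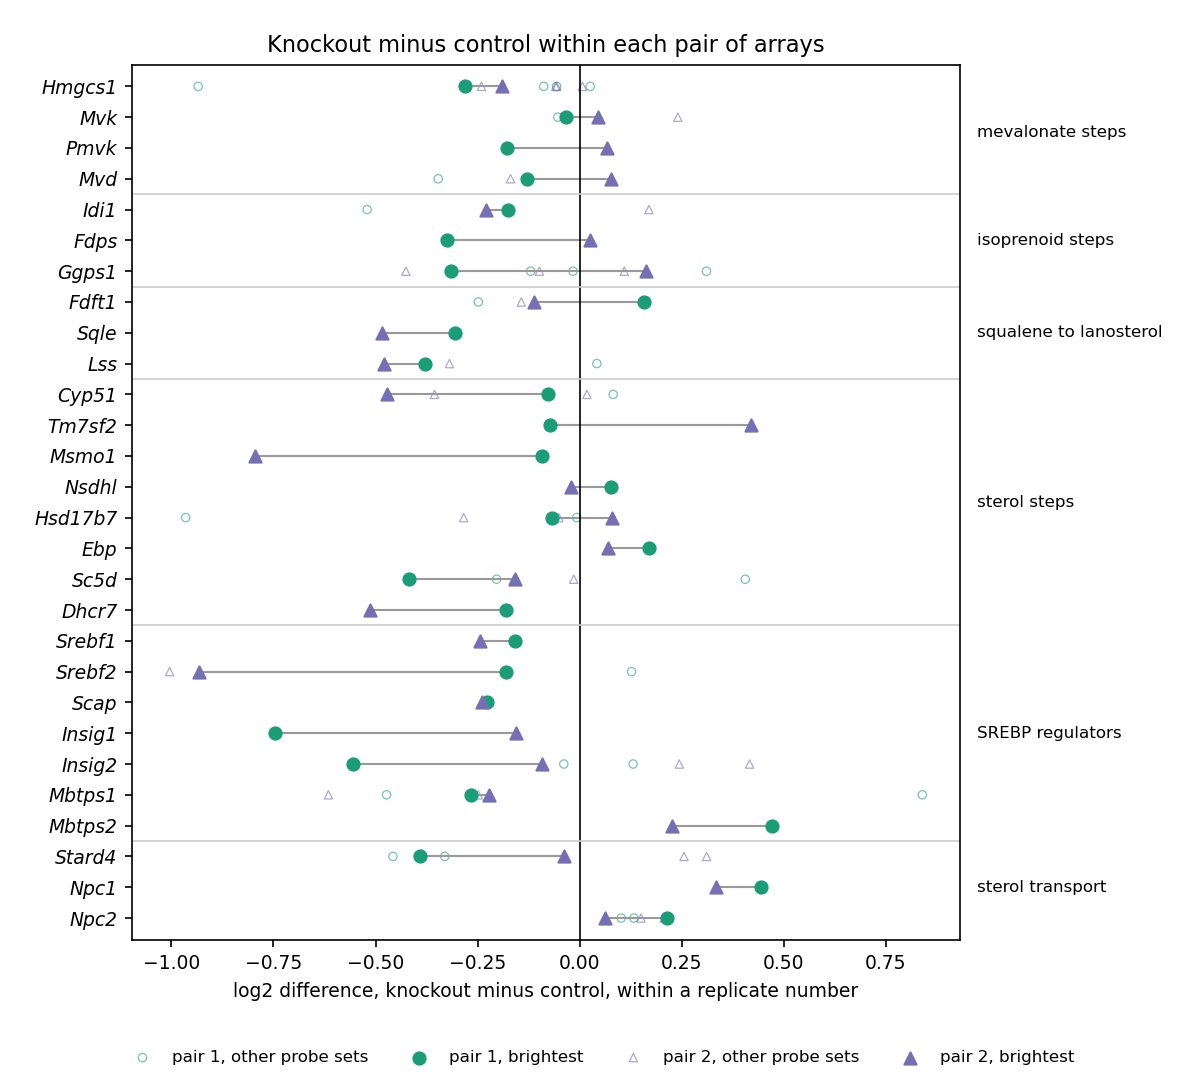
Log2 difference, knockout minus control (horizontal axis), within pair 1 (green circles) and pair 2 (purple triangles) for the 28 genes in pathway order, with the brightest probe set filled and joined by a line and other probe sets past the filter open. Both filled symbols lie left of 0 for 15 genes and right of 0 for 4, and the lines are longest for Msmo1 and Srebf2.

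The sterol transport genes were not lower as a group. Npc1, the membrane protein that passes cholesterol out of the lysosome, read 273 and 262 in control cells and 377 and 334 in knockout cells. Both knockout arrays were above both controls, by 30.9% on average (0.39 ± 0.23; 95% interval -0.19 to 0.96; limma adjusted p = 0.999), and the pairs gave 0.44 and 0.33. Npc2, its soluble partner in the lysosome, read 9523 and 9613 in control cells and 11046 and 10031 in knockout cells. The difference was small (0.14 ± 0.11; 95% interval -0.13 to 0.40), and its 3 probe sets past the filter were all positive, from 0.13 to 0.17, in both pairs. Averaging in a further, dim probe set gave -0.059. Stard4, a carrier of sterols through the cytosol, read 1151 and 1220 in control cells and 875 and 1187 in knockout cells, where knockout 1 was low and the pairs gave -0.39 and -0.04. Its 2 other probe sets were lower in pair 1 and higher in pair 2.

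Taken by probe set, the pattern was weaker than by brightest probe set. Of the 55 probe sets past the filter, 36 were negative and 19 positive, with a median of -0.11 beside -0.02 over all probe sets, and 27 were lower and 10 higher in both pairs (background 33.2% and 27.9%). Among the 15 genes with several probe sets past the filter, the signs differed in 8. The 8 probe sets below the filter, which belong to Fdps, Fdft1, Lss, Msmo1, Hsd17b7, Scap and Npc2, read at most 89 units.

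The replicate number separated some of these genes more than the genotype did, as it did for most genes on the array that passed the filter. Number 2 minus number 1 was -7.17 for the sex-linked Xist and 2.77 for Eif2s3y. A sex-linked difference between the cells and other variation between numbers therefore cannot be told apart. In limma with genotype and number in the model, 3 of 28 genes were lower in number 2 and 0 were higher, where 8.26% and 8.46% of all genes were. These were Mbtps2 (-0.71 ± 0.16; adjusted p = 0.0164), Cyp51 (-0.62 ± 0.14; adjusted p = 0.0182) and Mbtps1 (-0.58 ± 0.12; adjusted p = 0.0099). Insig1 came next (-0.53 ± 0.16; adjusted p = 0.0505). Of the 3 called, Mbtps2 lies on the X chromosome, as do Ebp and Nsdhl, which this model did not call. The difference between numbers was larger in size than that between genotypes for 16 of 28 genes and for 61.6% of all genes. Of the 7 genes of SREBP control, these tests called Mbtps1 and Mbtps2. All 7 had negative mean differences between numbers, with a median of -0.32, where 5515 of all 11079 genes were negative. That of Insig2 was only -0.007, and Srebf2 was higher in number 2 among control cells (0.15). With median centring, which moved the median of all genes to 0.32 between numbers, 3 of the 7 were negative. The calls of Cyp51, Mbtps1 and Mbtps2 depended on the scaling. All 3 were lost with median centring, where 11 other pathway genes were called, all higher in number 2, as were 33.8% of all genes. All 3 were also lost without the level filter and without the intensity trend in limma, where 0 pathway genes were called. Cyp51 and Mbtps1 lost their calls with probe sets averaged. With the deposited scaling all 3 kept their calls, and Insig1 (lower) and Msmo1 (higher) joined them.

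**Figure D4:**
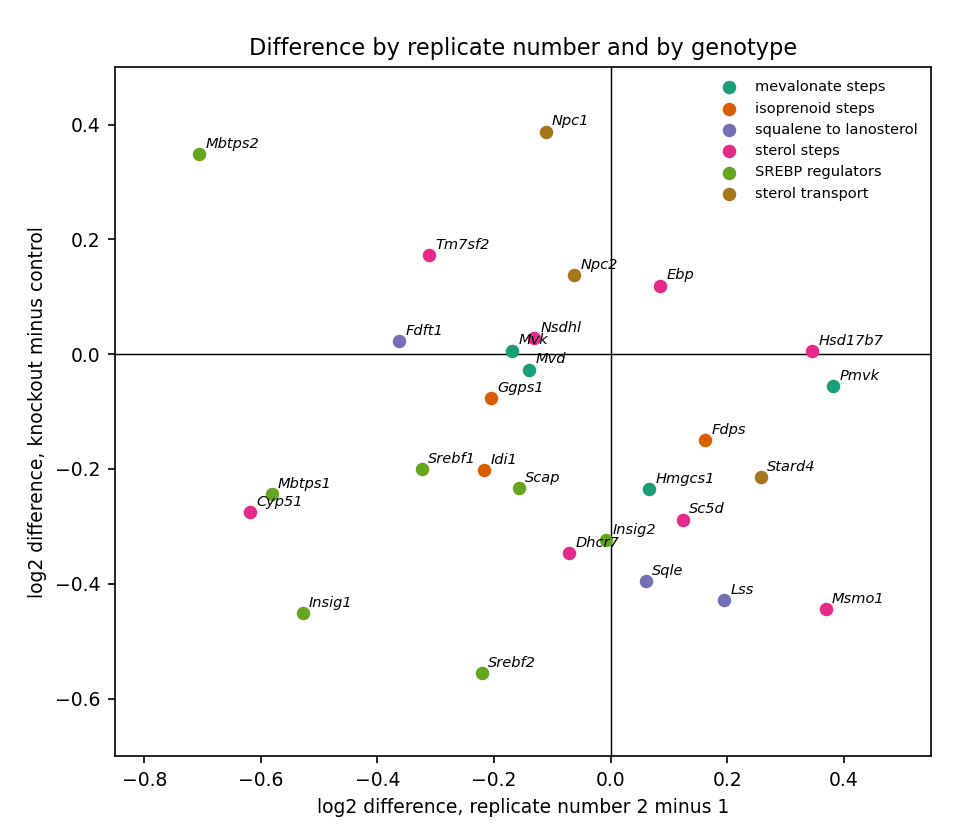
Log2 difference of each of the 28 genes between replicate numbers (2 minus 1, horizontal axis) and between genotypes (knockout minus control, vertical axis), coloured by place in the pathway. Srebf2 is lowest on the vertical axis at -0.56, and Mbtps2 is farthest left at -0.71. All 7 regulators lie left of 0 on this scaling, Insig2 at -0.007, and 3 of 7 with median centring.

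Neighbouring pathways were read from lists of related genes. Fatty acid synthesis, whose enzymes SREBP-1 drives, had a median of -0.21 over 12 genes, of which 10 were negative. In both pairs 9 were lower and 1 was higher, beside 30.2% and 32.8% of all genes. Elovl6, which lengthens fatty acids, read 2009 and 2568 in control cells and 1514 and 1869 in knockout cells (-0.43 ± 0.23). Fasn, the fatty acid synthase gene, read 6274 and 5156 in control cells and 4805 and 4509 in knockout cells (-0.29 ± 0.16), also without overlap. Elovl5 (-0.26 ± 0.16) had pairs of -0.26 and -0.26, and Acly, which supplies acetyl-CoA, had -0.16 and -0.58 (-0.37 ± 0.26). In limma 0 of the 12 passed after adjustment in either model. At an unadjusted p under 0.05 the list held 0 genes without the pairing, where 562 of all 11079 genes passed. With the pairing it held 5, all lower, where 7.53% of all genes were lower.

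Genes of sterol efflux, storage and oxysterols had a median of 0.18 over the 9 that passed the level filter, 7 of them positive. In both pairs 5 were higher and 0 lower, beside 32.8% and 30.2% of all genes. Abcg1, a transporter that exports cholesterol and a target of the sterol-sensing LXR receptors, read 67.5 and 41.3 in control cells and 158 and 120 in knockout cells. Both knockout arrays were above both controls, by 2.23-fold on average (1.16 ± 0.33; pairs of 1.06 and 1.25). Abcg1 did not pass without the pairing (limma adjusted p = 0.811) and passed in the paired model (adjusted p = 0.0433), the 1 gene of these lists to do so. Of all genes, 3.25% passed on the higher side in that model. Its mean in control cells (log2 6.11) was below the level filter (log2 6.26), so it was tested only through the knockout cells where it is high. Its call and the counts of this list are therefore a description and no support for a rise. Nr1h3, which encodes LXR alpha, gave 0.06 and 0.80 in the pairs, and Cyp7b1, an oxysterol hydroxylase, 0.55 and 0.84. Lipa, the lysosomal acid lipase gene, gave 0.13 and 0.23. At an unadjusted p under 0.05 the list held 1 gene without the pairing, where 562 of all 11079 genes passed. With the pairing it held 2, both higher, where 10.8% of all genes were higher.

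The isoprenoid branches that lead to prenylated proteins, dolichol and ubiquinone had a median of -0.04 over 12 genes (8 negative), and the genes of sterol-regulated degradation in the endoplasmic reticulum one of -0.007 over 7 (4 negative). Pggt1b, a subunit of the geranylgeranyl transferase, was higher in both pairs (0.27 and 0.47), and Erlin1 was lower in both (-0.53 and -0.22). Fnta, Pdss2 and Icmt, which followed Pggt1b by p, had differences of -0.14, 0.25 and -0.20. Erlin2, Rnf139 and Ubxn4 had differences of -0.12, -0.09 and 0.07. None of the 19 passed after adjustment in limma in either model, 0 had an unadjusted p under 0.05 without the pairing, and Pggt1b and Erlin1 did with it. With the pairing 10.8% of all genes were higher and 7.53% lower at that level.

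**Figure D5:**
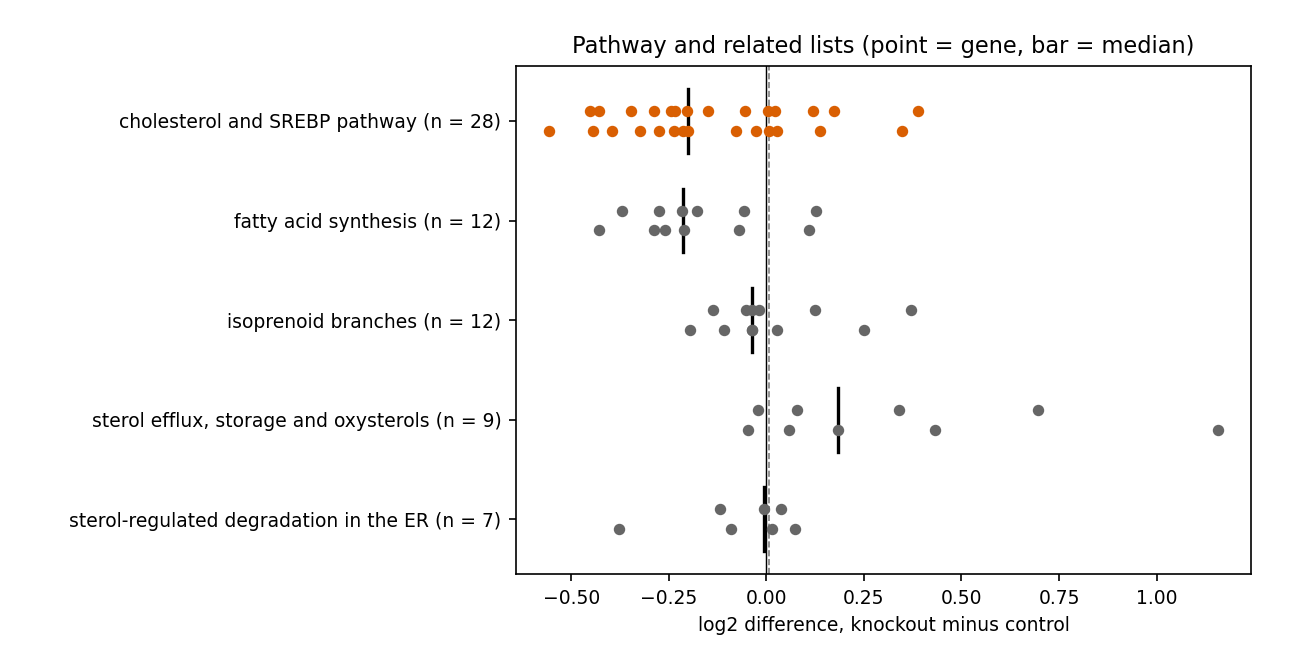
Log2 difference, knockout minus control (horizontal axis), of each gene past the level filter among the 28 cholesterol and SREBP pathway genes (orange) and 4 related lists (grey), with a black bar at each median and a dashed line at the median of all genes. The medians run from -0.21 for fatty acid synthesis to 0.18 for sterol efflux, storage and oxysterols, where Abcg1 lies farthest right at 1.16.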

How the data were processed

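The authors deposited 1 signal intensity per probe set and array on a linear scale, made with MAS5 per the submitters' processing notes. In the deposited values each array's mean, after trimming 2% from each end, was 500.003. The 64 Affymetrix control probe sets were left out. Signals were quantile normalized and taken as log2(signal + 16), and the 22519 probe sets past the level filter were fitted in limma 3.58.1 under R 4.3.3 (lmFit, then eBayes with its trend option). Benjamini-Hochberg adjustment ran over all of them, with a threshold of 0.05. The fit was checked on simulated data in which the added differences were larger than any of the pathway genes. That check does not cover differences of the sizes reported here for them. The fit to the real data had 2 residual and 4.1 prior degrees of freedom, or 1 and 9.81 with the replicate number as a block. With 2 arrays a group, the smallest two-sided p of an exact permutation test is 0.333.

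The replicate numbers were treated as pairs. Arrays with the same number deviated together (a correlation of 0.603 over probe sets). The X-linked Xist read 11634 and 10031 in number 1 but 51.4 and 68.1 in number 2. The Y-linked Eif2s3y read 130 and 203 in number 1 but 1122 and 1296 in number 2. The numbers thus differ in sex-linked transcripts whose levels both genotypes of a number share. The labels do not state this pairing. With so few arrays, all values are imprecise.

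The genes, the related lists and the markers were chosen with earlier results of these data known. All pathway genes are named. Of each related list the 4 genes with the smallest p are named. Alternatives were pseudocounts of 1 and 64, no filter and one at the 75th percentile, deposited scaling, median centring, no trend, robust eBayes, the replicate block, other choices of probe set, and leaving out each array.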

Additional observations from a re-analysis of the deposited data

How the results depend on the processing

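None of the 28 pathway genes passed an adjusted p of 0.05 under any alternative tried, including the replicate block (0) and each array left out, so only sizes and signs moved. In the related lists 1 gene passed with the replicate block and 0 otherwise. The count of genes lower in both pairs was 20 with median centring, where the share of all genes was 43.9% in place of 30.2%, and 14 or 15 otherwise. The median of -0.20 became -0.32 with median centring (-0.23 below that of all genes) and -0.12 with all probe sets of a gene averaged, dim ones included, and ranged from -0.199 to -0.086 with 1 array left out. The count of genes that differed between numbers was 3, and became 5 with the deposited scaling (14% of all genes lower and 10.1% higher), 11 with median centring (3.86% and 33.8%), and 0 without the filter or without the trend. Of the 3 genes, Cyp51, Mbtps1 and Mbtps2, 0 were among the 11, and Mbtps2 alone kept its call with probe sets averaged. Signs turned for Mvk (-0.031 with the deposited scaling and -0.14 with median centring), Hsd17b7 (-0.0105 and -0.12 there, -0.14 with probe sets averaged and -0.15 without _s_at and _x_at probe sets), Fdft1 (-0.098) and Nsdhl (-0.091) with median centring, and Fdps (0.096), Insig2 (0.0175) and Npc2 (-0.059) with probe sets averaged. With 1 array left out, the signs of 13 genes turned. The ranges were -0.098 to 0.11 for Mvk, -0.31 to 0.197 for Pmvk, -0.15 to 0.094 for Mvd, -0.32 to 0.019 for Fdps, -0.299 to 0.14 for Ggps1, -0.23 to 0.27 for Fdft1, -0.68 to 0.13 for Cyp51, -0.11 to 0.45 for Tm7sf2, -0.062 to 0.12 for Nsdhl, -0.204 to 0.21 for Hsd17b7, -0.55 to 0.058 for Mbtps1, -0.066 to 0.76 for Mbtps2 and -0.43 to 0.0022 for Stard4. Leaving out 1 array unbalances the numbers and leaves a lone array that is assumed to vary like the rest. Otherwise the cause was not tested.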
